A study of Mus musculus with 48 samples.

Results

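Mouse embryonic stem cells with 2 different lesions in the same region of NRDE2 were compared gene by gene. One line, *Nrde2*Δ*200* (Nrde2d200 in the labels), lacks the first 200 amino acids of the protein. The other, *Nrde2-D174R*, makes the full-length protein with the point mutation D174R, which puts arginine in place of an aspartate. Each line was sequenced as 2 replicate libraries of ribosomal RNA-depleted total RNA, without 4-hydroxytamoxifen (4OHT) or cycloheximide. Expression is given in CPM, the reads of a gene scaled to the total of its library. All autosomal genes whose CPM averaged 0.5 or more over these 4 libraries were taken, which gave 14161 of the 50970 autosomal genes in a table of 55335 genes. The lowest member had a mean of 0.501 CPM and the highest autosomal gene left out had 0.4999 CPM.

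All the *Nrde2* groups are mouse embryonic stem cells of a hybrid 129-C57BL/6 background grown in serum with LIF and 2i inhibitors, and they share a 4OHT-inducible Cre (Cre-ERT2) and the BirA biotin ligase. The control, called WT, is the conditional *Nrde2* knockout line left untreated, in which loxP sites flank exons of *Nrde2*, and *Nrde2*-KO is that line after 4 days in 100 nM 4OHT. Both mutations were made in *Nrde2* carrying a 3A tag (3xFLAG-AviTag) and are homozygous. Each mutant is 1 edited line, so a difference between the mutations and a difference between the edited clones cannot be told apart. The 2 replicates of a line are separate samples in the labels, which do not say whether they came from separate cultures, and p-values measure only the spread between such samples.

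NRDE2 is a conserved nuclear protein. It binds MTREX, the RNA helicase that feeds nuclear RNA to the exosome for degradation, through a motif in its amino-terminal part, and in these cells it also associates with CCDC174 and with the U1 snRNP, the particle that recognises 5′ splice sites (5′SSs) at the start of introns. U1 recognises the last 3 bases of the exon and the first 6 of the intron by base pairing, and a site with fewer matches to the consensus CAGGTAAGT is called weak. D174R changes the motif for MTREX alone, whereas Δ200 takes away the motif together with everything around it. The study also reports less NRDE2-D174R protein than wild-type NRDE2, and about as much Δ200 protein as wild type. Protein was not measured here.

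The lesions themselves are shown first, in GRCm38 coordinates and read from the minus strand that encodes *Nrde2* on chromosome 12. The capitals mark the codon that D174R changes, as in the genome and as in the repair oligo of the D174R line, and the first codon kept after the deletion.
Nrde2 around the mutated codon in the genome, chr12:100145917-100145943: gtcttcaggactGATaagaagccagat
Nrde2 around the mutated codon in the D174R donor: gtcttcaggactCGTaagaagccagat
Nrde2 from codon 201 in the genome, chr12:100144147-100144170: TCCtgcctgggtatcaatcctaag
Nrde2 from the first codon kept in the Δ200 donor: TCCtgcctgggtatcaatcctaag

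The D174R donor differed from the genome at 2 bases of this window, both in the codon, and the Δ200 donor was identical to the genome over the bases shown after the junction. The 3 introns below belong to *Tti1*, *Dnmt1* and *Cdk2*, which the study names as genes with NRDE2-dependent introns, and their host transcripts are compared between the mutants further on. The capitals mark the 9 bases that face U1.
Tti1 intron 5, chr2:157995361-157995390, minus strand: agccttcAAGGTACTGacacccctgtctgt
Dnmt1 intron 10, chr9:20932095-20932124, minus strand: cggaaaaAAGGCAAAGtccttactatctaa
Cdk2 intron 1, chr10:128704692-128704721, minus strand: ggctcgaCACGTGAGTggcctccggagccg

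The *Tti1* and *Dnmt1* sites matched the consensus at 5 of 9 positions and the *Cdk2* site at 7. The *Dnmt1* intron starts with GC in place of the usual GT.

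The 4 libraries held 30657985 to 32726275 reads in genes, within the 28683644 to 36272309 of all 28 RNA-seq libraries, and 0.5 CPM stood for at least 17.7 reads in each of the 4. The log2 levels of the 2 replicates differed with an SD over genes of 0.231 in Δ200 and 0.225 in D174R. All 10 embryonic stem cell markers, among them *Pou5f1*, *Nanog* and *Sox2*, were present in every library, with a summed level of 5240 and 5540 normalised CPM in Δ200, 5785 and 6034 in D174R, and 5742 to 5951 in WT. Feeder or fibroblast markers summed to at most 3.23 normalised CPM, and 2 of the 8 were at 0 in all 4 libraries. The 7 primitive endoderm markers summed to 18.9 and 20.4 in Δ200 against 12.6 and 14.1 in D174R and 13.1 to 13.2 in WT, and the 5 trophectoderm markers to 7.68 and 7.21 against 8.20 and 7.09, where WT had 4.10 and 4.23.

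The mutants differed at 202 genes, or 1.43% of those tested: 103 genes (0.727%) were higher in Δ200 and 99 (0.699%) were lower. A gene was called at a Benjamini-Hochberg adjusted p below 0.01 in limma, fitted on log2(normalised CPM + 0.25), with a log2 difference beyond 1, where normalised CPM is the deposited CPM divided by a size factor and every difference given is Δ200 minus D174R unless another is named. Of all 14161 genes, 87.7% had a log2 difference within 0.5 of 0, around a median that the size factors set near 0. In all 202 called genes both Δ200 libraries lay on the same side of both D174R libraries, which was also true of 8763 of all genes. Of the higher genes 24 had a mean under 0.5 normalised CPM in D174R. Of the lower genes 10 had a mean under 0.5 in Δ200. The membership of these genes rested mainly on the line in which they were high. On the CPM as deposited, without the size factor, the split moved to 144 higher and 70 lower. The count was sensitive to single libraries: it was 100 without Δ200 replicate 1, 76 without Δ200 replicate 2, 56 without D174R replicate 1 and 119 without D174R replicate 2. With 2 libraries a line, no exact permutation test of a single gene could go below p = 0.333, and every p given comes from the fit across all genes of 20 libraries.

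**Figure D1:**
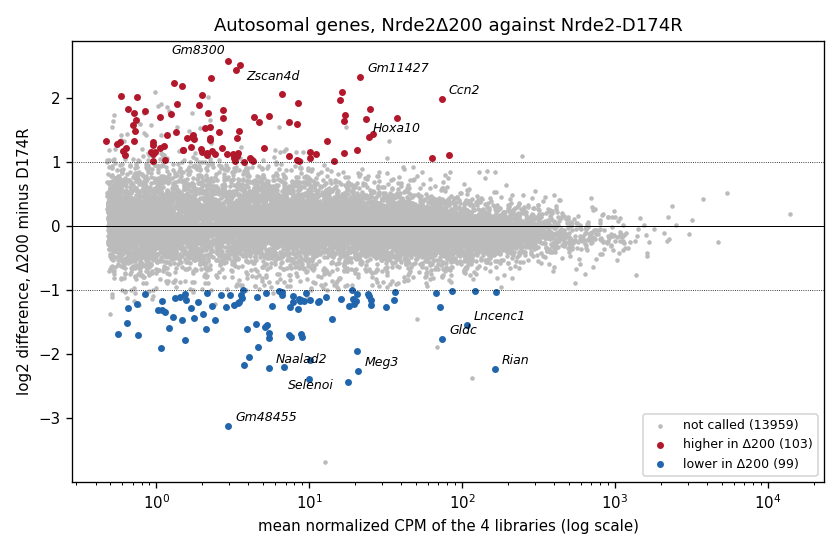
Each point is 1 of 14161 autosomal genes, with its mean normalised CPM over the 4 libraries on a log axis (x) and the log2 difference Δ200 minus D174R (y); dotted lines mark log2 differences of 1 and -1. The 103 genes called higher and 99 called lower lie on both sides of a cloud centred on 0.

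Beside WT, most of the called genes lay apart in Δ200, and D174R was closer to WT in the median. Among the 103 higher genes the median log2 difference from WT was 1.31 in Δ200 and -0.01 in D174R. Among the 99 lower genes it was -1.09 in Δ200 and 0.13 in D174R. Both Δ200 libraries lay beyond both WT libraries in 100 of the 103 and 86 of the 99. In 25 of the higher and 29 of the lower genes the D174R libraries lay beyond WT on the opposite side as well. The genes were chosen by the difference between the mutants, and these counts were not taken over all genes. Tested over the same genes, 371 (2.62%) were called between Δ200 and WT, 245 higher and 126 lower, and 30 (0.212%) between D174R and WT, 25 higher and 5 lower. These 2 comparisons share the WT libraries.

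Neither *Nrde2* nor any measured gene on the lists of partners below was called. The full sets of interactors that the study reported were not set against the calls. At the 1.43% called of all genes, a list of 40 genes would hold fewer than 1 call. *Nrde2* itself, the edited gene, had 50.1 and 51.9 normalised CPM in Δ200, 41.6 and 39.1 in D174R, 40.2 and 38.8 in WT and 18.3 and 19.5 in *Nrde2*-KO. Both Δ200 libraries were above the other 6, with a log2 difference from D174R of 0.34 ± 0.10 (SE, n = 2 against 2, limma adjusted p = 0.029). *Mtrex* differed by -0.25 (limma adjusted p = 0.090) and *Ccdc174* by 0.35 (limma adjusted p = 0.064). None of the 29 measured members of the list of NRDE2, CCDC174, MTREX and its nuclear adaptors was called, with a median of -0.07 and a range of -0.37 to 0.35. There was no call either among 23 U1 snRNP and Sm proteins (median -0.08, range -0.73 to 0.62), 40 SR proteins and hnRNPs (-0.09, -0.97 to 0.37), 9 core spliceosome proteins named as partners (-0.16, -0.28 to 0.08) and 18 nonsense-mediated decay factors (-0.06, -0.92 to 0.20). *Eif4a3*, a core of the exon junction complex, and *U2af2*, which binds the 3′ end of introns, differed by -0.16 and -0.18.

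*Tti1*, *Cdk2* and *Dnmt1* were lower in Δ200 than in D174R, each by less than the fold needed for a call. *Tti1*, a scaffold for PI3K-like kinases, had 48.5 and 47.5 normalised CPM in Δ200 and 77.7 and 77.6 in D174R, with 84.8 and 74.6 in WT and 29.0 and 29.2 in *Nrde2*-KO. Its log2 difference was -0.69 ± 0.10 (SE, limma adjusted p = 0.00027). The Δ200 libraries thus lay between the knockout and the other 4. *Cdk2*, a kinase of the G1-S transition, had 90.1 and 84.8 in Δ200 against 122.6 and 120.7 in D174R, a difference of -0.48 ± 0.10 (limma adjusted p = 0.0061), and its knockout libraries had 83.0 and 87.7. *Dnmt1*, the maintenance DNA methyltransferase, had 383 and 368 against 474 and 474 (-0.33 ± 0.09, limma adjusted p = 0.019), and 287 and 285 in the knockout. In D174R the 3 transcripts differed from WT by -0.03, -0.11 and 0.06 on the log2 scale, in the same order. The study chose these genes on the knockout libraries of this series, so they are not independent evidence of a direction. Intron reads were not analysed here.

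Genes of the 2C-like state were among the most changed. A small share of mouse embryonic stem cells passes through this state, in which genes of the 2-cell embryo such as the *Zscan4* cluster are switched on. *Zscan4d*, a zinc finger protein of that cluster, had 5.44 and 6.79 normalised CPM in Δ200, 0.661 and 1.11 in D174R, 0.879 and 0.597 in WT and 11.6 and 8.25 in *Nrde2*-KO. The Δ200 libraries were 6.91-fold above D174R in the mean (log2 difference 2.51 ± 0.42, limma adjusted p = 0.0010), and D174R overlapped WT. *Gm8300* had 4.70 and 5.71 in Δ200 and 0.423 and 0.974 in D174R, a 7.45-fold difference in the mean. In bulk RNA a larger number of such cells and more RNA per cell cannot be told apart.

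Of the 49 genes in the 2C list, 21 were members and 6 were called higher (*Zscan4d*, *Gm8300*, *Gm13119*, *Arg2*, *Gm5662* and *Gm20767*), none lower, beside 0.727% of all genes called higher, with a median of 1.76 (1.63 for Δ200 minus WT, 0.05 for D174R minus WT and 2.20 for *Nrde2*-KO minus WT). The filter shaped this count: 13 of the 21 had a mean under 0.5 in D174R and were members only through Δ200, among them *Gm13119*, *Arg2*, *Gm5662* and *Gm20767*. Of the 24 list genes in the table that were not members, both Δ200 libraries were above both D174R libraries in 17 and below them in none, and 3 had no read in the 4 libraries. This ordering was not counted over the other genes that were not members. Among all 14161 members the libraries of the 2 lines did not overlap, in either direction, in 8763. The summed level of all list genes in the table was 332 and 316 normalised CPM in Δ200 and 344 and 281 in D174R, which overlap, and most of it came from *Slc38a2*, an abundant amino acid transporter. Without it the sum was 49.9 and 63.2 normalised CPM in Δ200, 20.5 and 20.9 in D174R, 19.9 and 16.5 in WT and 106 and 77.7 in the knockout. *Usp17lb*, which encodes a ubiquitin protease, had 1.33 and 1.34 in Δ200 against 0.264 and 0.406 in D174R and did not pass (limma adjusted p = 0.063). Many of these genes have near-identical copies, and only uniquely mapped reads were counted, so single values are uncertain. The number called was 17 when only the 4 libraries were fitted and 0 to 2 when any 1 of the 4 was left out.

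Other called genes were higher in Δ200 than in every library of D174R, WT and the knockout. *Tent5a*, a noncanonical poly(A) polymerase, had 5.07 and 6.41 normalised CPM in Δ200, 0.793 and 0.920 in D174R, 0.996 and 0.921 in WT and 1.72 and 1.33 in *Nrde2*-KO (6.70-fold Δ200 over D174R; log2 difference 2.43 ± 0.24, limma adjusted p = 7.0e-06). *Ccn2*, a secreted matrix protein and a target of YAP, had 107 and 129 in Δ200 and 30.8 and 28.5 in D174R, with 20.04 and 18.99 in WT and 38.6 and 35.6 in the knockout. It was the 1 call among 15 measured YAP-responsive genes, whose median was -0.06. *Sox11*, a transcription factor of neural progenitors, had 28.5 and 22.7 in Δ200, 6.61 and 6.04 in D174R, 8.44 and 8.21 in WT and 5.20 and 3.37 in the knockout. For this gene Δ200 lay above WT and the knockout below it. *Sox11* was the 1 call among 8 neuroectoderm genes, and their median was -0.36. The 6 neuroectoderm markers summed to 61.3 and 53.01 normalised CPM in Δ200 and 47.4 and 59.3 in D174R, which overlap.

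*Gm11427* and *AI662270*, which overlap on chromosome 11, had 38.5 and 33.6, and 28.9 and 24.6, normalised CPM in Δ200 against 8.65 and 5.68, and 7.54 and 4.90, in D174R. Their shared position makes the assignment of reads between them uncertain. *Nwd2* on chromosome 5 had 8.69 and 12.995 against 1.98 and 2.79, and its neighbours *0610040J01Rik* and *Gm9954* were called higher too. For *Gm11427*, *AI662270* and *Nwd2* the D174R level was itself above WT, by 1.498, 1.14 and 1.07 on the log2 scale, and Δ200 was above it by 2.32, 2.09 and 2.06 more. *Tnnc2*, a troponin of fast skeletal muscle, had 2.19 and 2.95 against 0.264 and 0.487. *Gpnmb* on chromosome 6, a glycoprotein of lysosomes and melanosomes, had 47.2 and 30.9 against 13.2 and 8.42. Its knockout libraries, at 42.4 and 19.7, overlapped those of Δ200, and WT had 12.7 and 7.14.

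**Figure D2:**
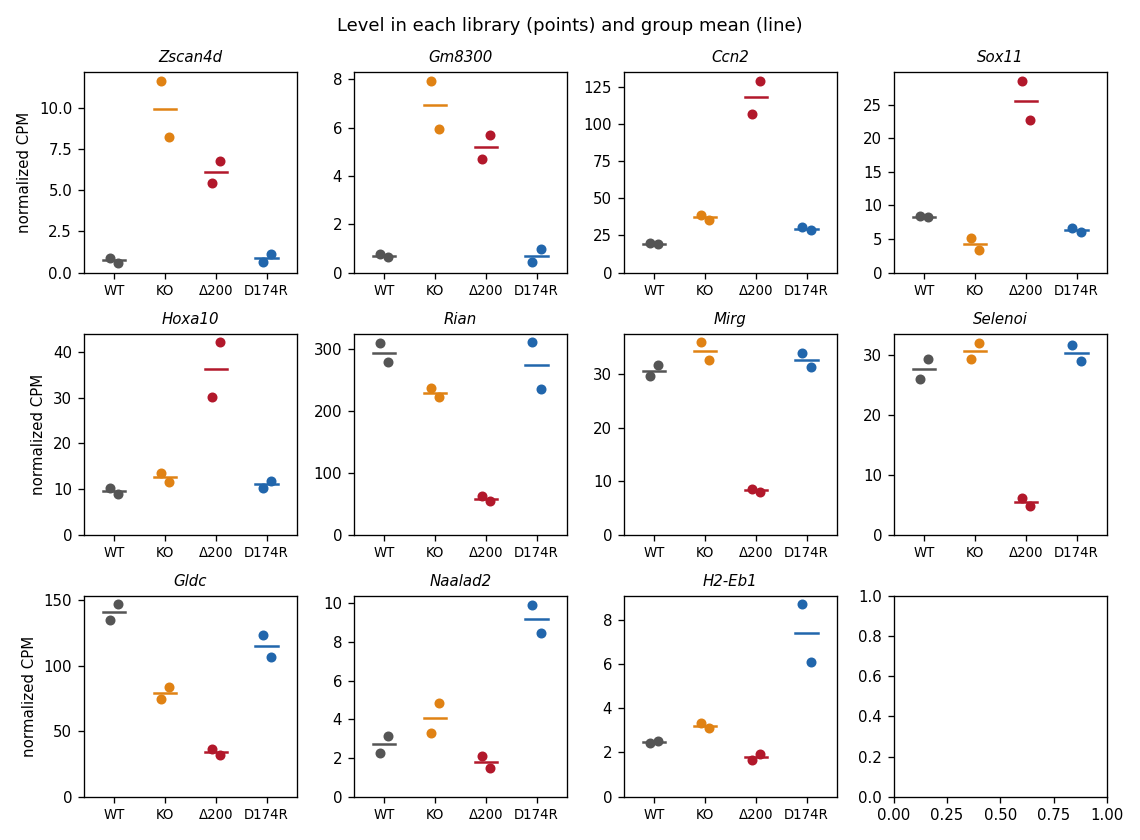
Each panel gives 1 gene, with normalised CPM (y, starting at 0) in the 2 libraries (points) and the mean (line) of WT, Nrde2-KO, Δ200 and D174R. Δ200 stands apart from the 3 other groups in *Ccn2*, *Sox11*, *Hoxa10*, *Rian*, *Mirg*, *Selenoi* and *Gldc*. It lies between the knockout and the other groups in *Zscan4d* and *Gm8300*. D174R is the group apart in *Naalad2* and *H2-Eb1*.

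*Hox* genes, which encode the homeodomain factors of body axis patterning and are kept low in embryonic stem cells, were examined after their values were seen. Posterior genes of the *Hoxa* and *Hoxd* clusters were higher in Δ200. *Hoxa10* had 30.2 and 42.3 normalised CPM in Δ200, 10.3 and 11.8 in D174R, 10.3 and 8.96 in WT and 13.6 and 11.6 in *Nrde2*-KO. Its Δ200 libraries were 3.28-fold above D174R (log2 difference 1.68 ± 0.27, limma adjusted p = 0.00072), and the other 6 libraries lay within 8.96 to 13.6. *Hoxa9*, *Hoxa11* and the antisense transcript *Hoxa11os* were called as well, with log2 differences of 1.73, 1.72 and 1.88, and *Hoxa13* differed by 1.53 without passing (limma adjusted p = 0.015). On chromosome 2, *Hoxd13*, *Hoxd12*, *Hoxd11* and *Hoxd10* were called, with differences of 1.16, 1.70, 1.76 and 1.21. Their neighbour *Hoxd9* differed by 0.09. *Hoxd1*, at the other end of the cluster, differed by 1.05 without passing (limma adjusted p = 0.025). It had 0.640 and 0.956 normalised CPM in Δ200 against 0.185 and 0.325 in D174R. *Hoxd13*, the most abundant of these, had 14.7 and 13.3 in Δ200 against 5.26 and 7.15 in D174R.

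The 9 measured genes of the *Hoxa* cluster had a median difference of 1.53 and the 8 of the *Hoxd* cluster 1.10. The 9 of the *Hoxc* cluster had 0.07, and there *Hoxc4* was the 1 call, lower in Δ200 by -1.04. Of 4 measured *Hoxb* genes *Hoxb9* was called higher (1.04), with a knockout level, 5.95 and 5.66, that overlapped that of Δ200, 6.23 and 5.35. *Hoxc4* did not pass on the CPM as deposited. The *Hoxa* cluster lies on chromosome 6, whose genes were higher as a whole in Δ200 (below), and *Hoxd* does not.

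**Figure D3:**
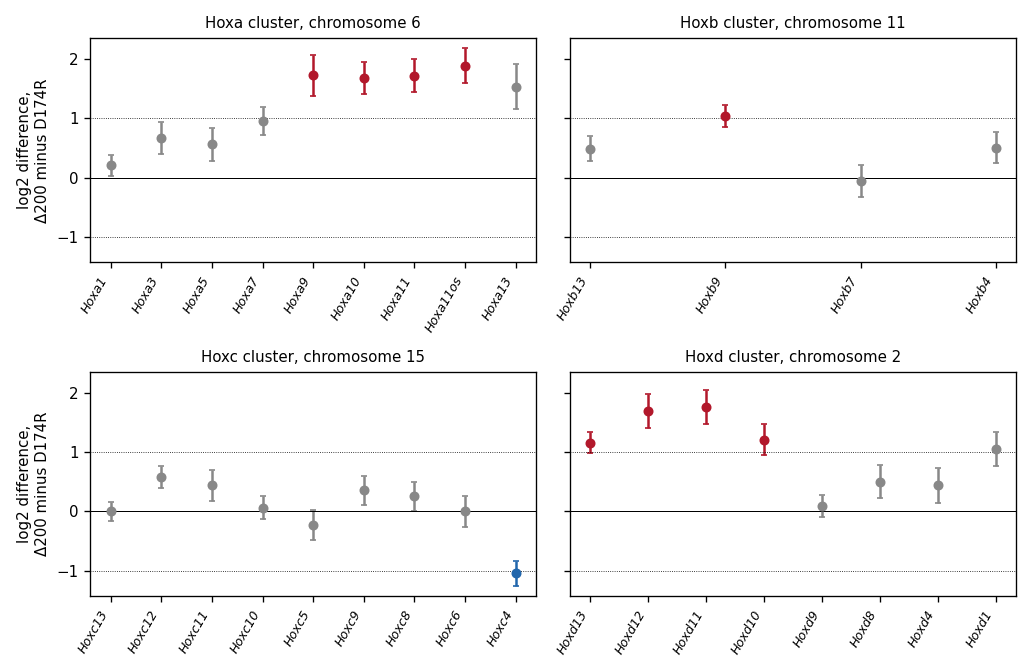
The log2 difference Δ200 minus D174R (points, with bars of 1 SE) is shown for each measured gene of the 4 *Hox* clusters, in chromosome order from left to right. Red genes were called higher and the blue gene lower; the called genes of *Hoxa* and *Hoxd* are neighbours toward the posterior end of their cluster.

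Among genes lower in Δ200, the maternally expressed noncoding RNAs of the imprinted *Dlk1-Dio3* region fell together. *Rian*, a host of many small nucleolar RNAs, had 61.6 and 53.6 normalised CPM in Δ200, 310 and 236 in D174R, 309 and 279 in WT and 236 and 222 in *Nrde2*-KO. The 6 other libraries were all above 222 and Δ200 was 4.74-fold below D174R in the mean (log2 difference -2.23 ± 0.28, limma adjusted p = 7.7e-05). *Meg3*, the long noncoding RNA at the start of the region, had 7.39 and 6.54 against 39.3 and 30.3. *Mirg*, a host of microRNAs at its far end, had 8.47 and 8.04 against 33.9 and 31.3. *Gm37899* and *B830012L14Rik*, which lie between *Rian* and *Mirg*, were called lower too, so that the 5 calls covered chr12:109541001-109749460 on the plus strand. Their log2 differences between D174R and WT ran from -0.12 to 0.30.

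The imprinted genes as a group did not move one way. Of 42 measured, 2 were called higher and 3 lower, where the shares over all genes were 0.727% and 0.699%, and the median was 0.00. The 3 lower calls are the neighbours *Meg3*, *Rian* and *Mirg*. The 2 higher were *Nnat*, at 7.54 and 6.05 against 1.83 and 1.98, and *Mest*, at 121 and 104 against 48.5 and 55.1, both expressed from the paternal copy. *Peg10*, another paternally expressed gene, had 308 and 367 in Δ200 and 150 and 165 in D174R without passing (1.09, limma adjusted p = 0.017), and its knockout libraries had 423 and 304. *Mest* and *Peg10* lie on chromosome 6.

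Several lower genes had similar levels in D174R and WT, and in most of them the knockout was close to WT as well. *Selenoi*, a selenoprotein that makes phosphatidylethanolamine, had 6.16 and 4.78 normalised CPM in Δ200 and 29.1 to 31.8 in D174R, where WT and the knockout ranged from 26.1 to 32.1. This was 5.57-fold (log2 difference -2.43, limma adjusted p = 9.9e-09). *Smoc1*, a secreted calcium-binding protein, had 2.22 and 2.33 in Δ200 and 10.4 to 13.8 in the 6 other libraries. *Rpap3*, a cochaperone of RNA polymerase and snoRNP assembly, had 42.7 and 41.7 against 98.4 and 105, and 91.6 to 100.1 in WT and the knockout. The noncoding *Gm48455* on chromosome 13 had the largest called difference on the log2(normalised CPM + 0.25) scale, at 0.566 and 0.284 against 5.58 and 5.41 (12.9-fold).

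Another set was lower in both Δ200 and the knockout. *Gldc*, the glycine decarboxylase of the glycine cleavage system, had 36.2 and 31.4 normalised CPM in Δ200, 123 and 107 in D174R, 135 and 147 in WT and 74.8 and 83.9 in *Nrde2*-KO (log2 difference -1.76 ± 0.12, limma adjusted p = 6.1e-08). The embryonic stem cell long noncoding RNA *Lncenc1* had 55.6 and 54.1 against 175 and 148, and 97.1 and 95.6 in the knockout. *Prdm1*, a zinc finger repressor of the germ line, had 4.11 and 2.61 against 12.9 and 9.83, and 4.23 and 6.58 in the knockout. *Utf1*, a chromatin factor of pluripotent cells, had 4.75 and 4.83 against 11.1 and 13.2. It was the 1 call among 25 measured naive pluripotency genes, 20 of which had a difference below 0, with a median of -0.23. *Aldh1l2*, a mitochondrial folate enzyme, and *Stc2*, a secreted glycoprotein, were called lower (-1.53 and -1.19) among 30 genes of the ATF4 and integrated stress response list, whose median was -0.28. The knockout difference of *Stc2* was -0.88 in the first knockout experiment and 0.03 in the second, and that of *Aldh1l2* was -1.60 and -1.56.

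In other genes the difference came from D174R. *Naalad2*, a membrane peptidase, had 9.94 and 8.45 normalised CPM in D174R, 2.12 and 1.47 in Δ200, 2.26 and 3.14 in WT and 3.31 and 4.86 in *Nrde2*-KO (log2 difference -2.22 ± 0.30, limma adjusted p = 0.00019). *Ddr2*, a collagen receptor kinase, had 12.5 and 15.3 in D174R and 3.20 and 4.88 in Δ200. *H2-Eb1*, a chain of MHC class II, had 8.70 and 6.09 against 1.67 and 1.91, with WT at 2.43 and 2.51. *Cdh4*, a cadherin, had 8.09 and 7.42 in D174R, while Δ200 (2.68 and 2.22) overlapped WT (1.90 and 2.44). *Stk33*, a serine/threonine kinase, and *Aox3*, an aldehyde oxidase, were 1.55 and 1.42 log2 above WT in D174R. In all, 18 of the 99 lower genes were more than 1 log2 above WT in D174R, against 2 of the 103 higher genes that were more than 1 below it, *Gm17300* and *Gm20628*.

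The remaining lists held few calls or none, against the 1.43% of all genes. Replication-dependent histone genes, whose mRNAs lack a poly(A) tail, had no call among 57, but 55 of them were above 0 with a median of 0.26. Their median difference from WT was -0.30 in D174R and -0.06 in Δ200. In the primitive endoderm list, 1 of 15 was called (*Dab2*, an endocytic adaptor, 1.09), with a median of 0.41, and the summed primitive endoderm markers given above were higher in both Δ200 libraries. The basement membrane genes *Lamb1*, *Col4a1* and *Col4a2* differed by 0.74, 0.82 and 0.78 and *Lamc1* by -0.53, all with a limma adjusted p of at most 0.0079 and none past the fold. Cholesterol synthesis genes had no call among 21, and 20 of them were below 0 (median -0.28). *Ccna1*, a cyclin of meiotic cells, was the 1 call (1.22) among 32 cyclins, CDKs and inhibitors. No gene was called among 71 cytosolic ribosomal proteins (median 0.06), 26 p53 targets (-0.03), 18 snoRNA hosts (0.02), 19 germline genes silenced by DNA methylation (-0.05), 16 genes of DNA methylation and demethylation (-0.09), 11 genes of the TTI1 complex and its client kinases (-0.07), 25 of glycolysis and hypoxia (0.17), 15 of the LIF and STAT3 pathway (-0.10), 17 of Nodal signalling (-0.02), 15 primed pluripotency genes (-0.11), 15 of the primitive streak (-0.03), 16 trophectoderm genes (0.23), 8 interferon-stimulated genes (0.12) or 7 feeder genes (0.14). The 15 measured nuclear long noncoding RNAs had 2 lower calls, *Meg3* and *Lncenc1*, and a median of 0.02.

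The genes of chromosome 6 were higher in Δ200 along its whole length. Their median log2 difference was 0.28, or 1.22-fold, and 83.1% of 706 genes were above 0. Medians of the other autosomes ran from -0.13 on chromosome 1 to 0.09 on chromosome 13. Against the mean of WT, the chromosome 6 median was 0.17 and 0.18 in the Δ200 libraries and -0.11 and -0.08 in the D174R libraries, and in windows of 20 Mb the difference between the mutants ran from 0.16 to 0.43. The chromosome held 17 higher calls and 1 lower, 2.41% of its genes called higher against 0.639% elsewhere. With each chromosome's median subtracted from the log2 differences, and the adjusted p-values left as they were, 190 genes passed, 95 in each direction. Chromosome 6 kept 8 higher and 2 lower calls. Copy number was not measured, and its part in these values was not tested.

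**Figure D4:**
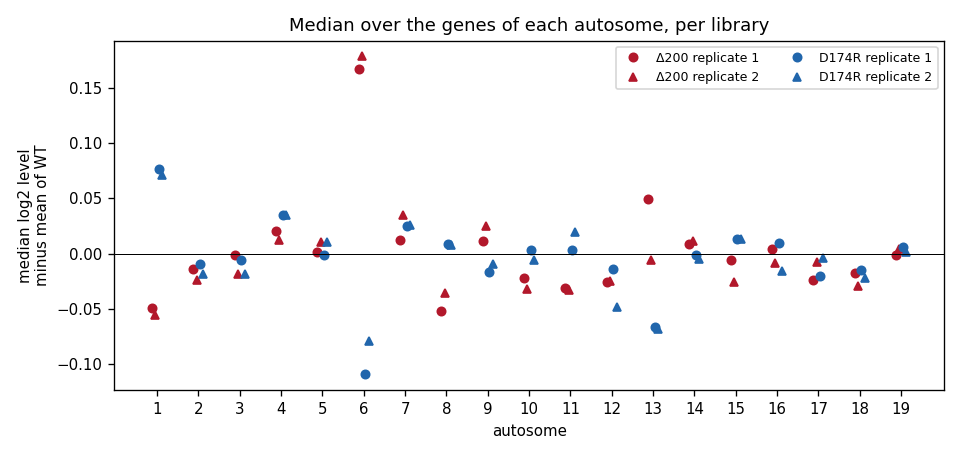
For each autosome (x), the median over its genes of the log2 level minus the mean of the 2 WT libraries (y) is given for the 2 Δ200 (red) and 2 D174R (blue) libraries. On chromosome 6 the Δ200 libraries sit at 0.17 and 0.18 and the D174R libraries at -0.11 and -0.08, and the widest median of any other autosome is the 0.08 of chromosome 1 in a D174R library.

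Of the 202 called genes, 36 had another gene called in the same direction within 100 kb, 21 among the higher and 15 among the lower. The same count was not taken for genes that were not called. The longest runs were those of *Hoxa*, *Hoxd* and the *Meg3* to *Mirg* region. Sex-linked genes were not members but were in the fit. On the Y chromosome 2 of 5 genes, *Eif2s3y* and *Uty*, passed the same thresholds, both lower in Δ200, and *Uba1y* and *Ddx3y* were lower by less than the fold (-0.99, limma adjusted p = 0.0038, and -0.95, limma adjusted p = 1.6e-05). *Eif2s3y* had 8.22 and 7.98 normalised CPM in Δ200, 28.96 and 28.8 in D174R and 49.0 and 54.4 in WT. All 4 genes were lower in D174R than in both WT libraries as well. On the X chromosome 8 of 498 passed, all lower in Δ200, where 1.43% of the autosomal genes were called. The median difference on the X chromosome was -0.02.

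The called genes were next set beside the acute loss of NRDE2. The knockout and WT libraries were outside the contrast between the mutants but in the same fit, and so shared its size factors and estimate of the spread. The difference *Nrde2*-KO minus WT had the same sign in 84 of the 103 higher genes (81.6%, 95% exact binomial interval 72.7 to 88.5%), where the share was 61.6% over all 7087 genes with a positive difference between the mutants. It had the same sign in 72 of the 99 lower genes (72.7%, 62.9 to 81.2%), against 64.5% of all 7074 genes with a negative difference. In a second, separate knockout experiment the shares were 83.5% (60.8% over all) and 64.6% (62.3%). The intervals treat genes as independent, which neighbours and coregulated genes are not. Among higher genes, 35 were more than 1 log2 above WT in the first knockout experiment and none was more than 1 below it. Among lower genes 14 were more than 1 below WT and 2 more than 1 above it. In the second experiment the numbers were 36 and 1 for the higher and 14 and 1 for the lower genes.

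**Figure D5:**
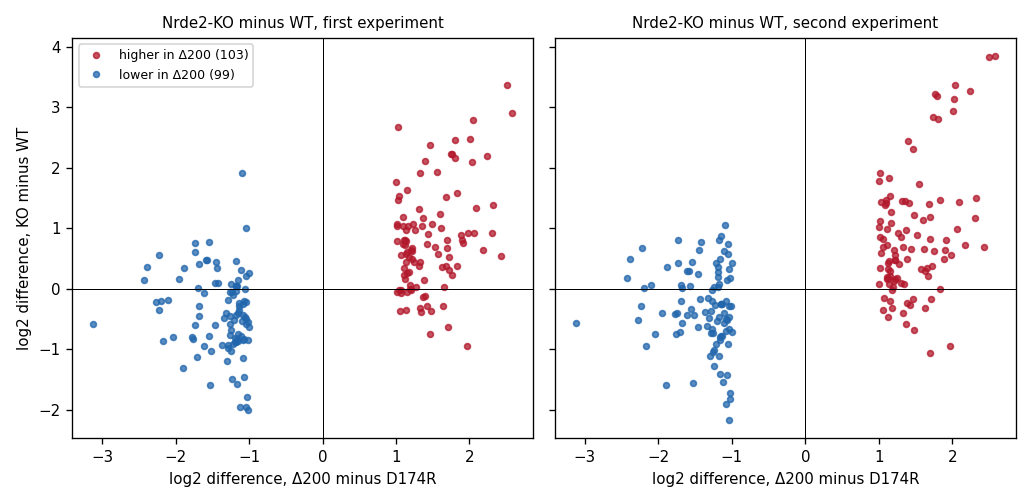
Each point is a gene called between the mutants, with the log2 difference Δ200 minus D174R (x) and *Nrde2*-KO minus WT (y) in 2 knockout experiments. Of the 103 genes higher in Δ200 (red), 84 lie above 0 in the first experiment; the 99 lower genes (blue) spread further across 0.

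Loss of the partners was measured in other lines, a conditional *Mtrex* knockout and a line whose *Ccdc174* is fused to FKBP12F36V, the domain through which dTAG-13 degrades a protein, each with its own WT. After deletion of *Mtrex* by 3 days of 4OHT, 62.1% of the higher genes were above their own WT (51.0% over all) and 68.7% of the lower genes were below it (56.2%). After 24 h of CCDC174 degradation by 500 nM dTAG-13 the shares were 64.1% (64.2%) and 76.8% (57.8%).

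Gene structure was compared with all members as a description. Of 985 annotated 5′SSs in the higher genes 16.5% were weak, with at most 5 of 9 matches to the consensus like those of *Tti1* and *Dnmt1* shown above, against 21.3% of 1313 sites in the lower genes and 19.4% of 158953 sites in all members. With at most 4 matches the shares were 2.54, 3.12 and 3.13%. By this count the *Cdk2* site, with 7 matches, was not weak, although the study describes it as weak. The study scored splice sites with the Matt toolkit, which was not used here. The higher genes had a median of 6 annotated sites a gene, the lower 11 and all members 9. Their median exonic lengths were 3721, 4937 and 4074 bases, and 88.3, 85.9 and 87.6% were protein-coding.

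A few of the largest differences were not calls, in genes whose replicates lay apart. *Gm15564* had 11.4 and 36.2 normalised CPM in the D174R libraries and 0.887 and 2.02 in Δ200, a log2 difference of -3.68 with a limma adjusted p of 0.056. *Mir6236* had 160 and 231 in D174R against 26.4 and 51.6 (limma adjusted p = 0.011), and *Lars2*, a mitochondrial tRNA synthetase, 64.2 and 156 against 23.8 and 30.4 (limma adjusted p = 0.14). In all 3 genes D174R replicate 2 was the higher of the 2, and every D174R library was above every WT library.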

How the data were processed

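Total RNA was rRNA-depleted and sequenced as 50-nt single-end stranded reads. Per the study's methods, alignment to mm10 used STAR 2.7.3a with GENCODE M23 annotation, and featureCounts counted the unique, correctly stranded reads of each gene. The table deposited by the authors holds CPM, a gene's reads scaled to the library total. Its values gave whole reads in 100% of cases (within 0.1), and edgeR on those reads called 203 genes. CPM were divided by median-of-ratios size factors and fitted with limma 3.58.1 (trend, eBayes, R 4.3.3) over the 20 libraries without cycloheximide in 10 groups, with Benjamini-Hochberg adjustment over 14681 genes of all chromosomes. The fold change on the log2(value + 0.25) scale understates that of low genes; folds in the text are ratios of mean normalised CPM. Annotation came from GENCODE M21, which held 55154 of the 55335 identifiers.

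The genes, lists and rules were chosen with earlier results of these data known. The rule named the 15 most changed calls in each direction with at least 1 CPM in the higher group, up to 4 calls of each list, and genes the study names; 1 gene that the rule took is not reported here. *Hox* genes, other neighbours, *Mest*, *Peg10*, *Gpnmb*, *Prdm1*, *Ddr2*, *Cdh4*, *Rpap3*, the basement membrane genes, *Gm17300*, *Gm20628*, *Gm15564*, *Mir6236*, *Lars2* and the Y-linked genes were named after their values were seen. Alternatives were edgeR 4.0.16, DESeq2 1.42.0, other pseudocounts, filters, libraries and models. Intervals cover counting error only. The fit was tested on simulated data first.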

Additional observations from a re-analysis of the deposited data

Results flagged for a closer look

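In 8 of the 29 genes reported among the most changed calls, both Δ200 libraries lay on one side of both WT libraries and both D174R libraries on the other. The contrast between the mutants passed in limma. That the mutants departed from WT in opposite directions was not shown, since in none of the 8 did both differences from WT pass, and they share the WT libraries. The log2 difference Δ200 minus D174R was -3.12 for *Gm48455* and -2.38 for *Gm32885*, where Δ200 made up most of it (-3.01 and -1.88 from WT, against 0.11 and 0.50 in D174R). It was 2.43 for *Tent5a*, 2.03 for *Gm5662* and 1.97 for *Sox11*, again with most of it in Δ200 (2.30, 1.63 and 1.58 from WT, against -0.13, -0.40 and -0.38). It was -2.22 for *Naalad2*, -2.17 for *Stk33* and -1.88 for *H2-Eb1*, where D174R made up most of it (1.69, 1.55 and 1.47 from WT, against -0.53, -0.62 and -0.42 in Δ200).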

How the results depend on the processing

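No gene called between the mutants changed direction in any of the settings tried. In all 202 the libraries of the 2 lines did not overlap, which left little room for a change of direction. The 202 calls became 109 with a pseudocount of 1, 126 with no filter and 56 to 119 without 1 of the 4 libraries. Higher calls numbered 49 with a pseudocount of 1, 56 with no filter, 164 with only the 4 libraries, 157 with only the 8 libraries of WT, the knockout and the mutants, and 19 to 51 without 1 library. Lower calls numbered 60 with a pseudocount of 1 and 37 to 68 without 1 library. edgeR called 203 genes (186 shared) and DESeq2 238 (189 shared). The 2 lines share only replicate numbers, and the deviations of same-numbered libraries from their group means correlated at 0.22. With the replicate number as a block the calls were 312 in the 4 libraries (184 higher, and 17 of the 2C list) and 217 in the 20 libraries, which held all 202. The share of higher genes with the same sign in the knockout was 88.9% on CPM as deposited and 73.7 to 84.2% without 1 library. The 2C median was 2.16 with a pseudocount of 0.1, 0.96 with 1, 0.98 with no filter, 2.45 in edgeR, 2.39 in DESeq2 and 1.495 to 1.95 without 1 library. The 6 calls of the 2C list became 3 with a pseudocount of 1, a minimum of 1 CPM or no trend, 1 with no filter, 17 with only the 4 or the 8 libraries, and 0 to 2 without 1 library. *Hoxd9*, which was not called, differed by -0.023 to 0.21 without 1 library. Alternatives chosen after seeing the data were the subtraction of chromosome medians from the log2 differences alone (190 calls) and leaving out chromosome 6 (184 calls). Of 59 called genes examined singly, 38 passed under every setting that kept all 4 libraries and 23 under all settings. The causes of these changes were not tested.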
